A study of Mus musculus with 15 samples.

Results

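Binding of SAM68 to the transcripts of chromatin remodellers and histone-modifying enzymes was read from lists of iCLIP2 sites in mouse E14 cells. The rule uses gene symbols and the presence of a site, not the number of sites or their change. It takes every gene with a site on any day whose symbol begins with Kdm, Kmt, Kat, Hdac, Smarc, Arid, Setd, Ncor or Brd, is Chd followed by a digit, or is Nipbl, and Jarid2 is left out. In all, 80 of the 7949 genes with a site met the rule. The symbol prefix Kat also takes in Katna1, Katnal2 and Katnbl1, which belong to the katanin family of microtubule-severing proteins and are not chromatin proteins. Together these 3 genes held 10 sites, with 2 on day 0, 5 on day 3 and 3 on day 10. The other 77 members were taken by symbol alone, and not all of them encode a remodeller or a histone enzyme. Setd3, kept here under its prefix, is known to modify actin, Nipbl loads cohesin and Ncor1 is a scaffold.

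SAM68, a STAR-type RNA-binding protein, is known to prefer short A- and U-rich elements and to regulate alternative splicing and the choice of polyadenylation sites. Chromatin regulators act in complexes that move nucleosomes, such as the BAF, ISWI and CHD machines, or that write and erase marks on histone tails. Acetyltransferases of the Kat family open chromatin, deacetylases of the Hdac family work with corepressors such as Ncor1 to close it, and lysine methyltransferases and demethylases set the marks of promoters and enhancers. In stem cells these enzymes hold genes of later lineages in check and take part in their activation when the cells differentiate.

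In iCLIP2 the protein is crosslinked to RNA in living cells by ultraviolet light (254 nm, 150 mJ/cm2), immunoprecipitated, and the crosslinked base is read from the point where reverse transcription stops. E14 embryonic stem cells, for which the labels name no genetic change, were kept without feeders in medium with serum, LIF and the GSK and MEK inhibitors of the 2i culture at day 0. Embryoid bodies, in which stem cells form derivatives of the germ layers, were formed in serum medium, taken at day 3 from hanging drops and at day 10 from spheroid plates, and dissociated before crosslinking, so that day and culture format cannot be told apart. Each day had 5 libraries, deposited as 1 list of sites of 5 nt, and the labels do not say whether the libraries came from separate cultures. All cells came from 1 line, and a body holds a mixture of cell types.

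Sequence around the sites could be read where a site fell inside a RefSeq promoter window, which reaches from 250 bases before to 50 bases after an annotated start. Such windows were at hand for 57 members (83 windows), and 2 of the members' 2933 sites lay in one. They are shown because they are the only crosslinked bases of the group that could be read. Each line gives 30 bases of the transcribed strand (RefSeq, GRCm38.p6), with the 5 bases of the site in capitals.
Kdm3a: ggaaatttcctgcCTATTttaaggcaaatt
Kat8: gtgttttgttgtctgtctttacATTTCtct
The Kdm3a stretch, chr6:71609304-71609333 on the minus strand, holds a day 10 site 179 nt before an annotated start that lies inside the gene. Kdm3a encodes a histone demethylase. The Kat8 stretch, chr7:127913034-127913063 on the plus strand, holds a day 10 site 44 nt after an annotated start that also lies inside the gene, and 0.541 kb from the 5' end of the gene. This was the only site in Kat8, which encodes an acetyltransferase.

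The lists held 29740 sites on day 0, 28266 on day 3 and 74287 on day 10, with no count of crosslinks and no value for single libraries. A gene is therefore described by its number of sites and by its share, the sites per 10000 sites of that day's list. The ratio of 2 shares is given with an exact conditional binomial 95% interval in brackets, which covers counting error only, and a gene is called larger or smaller where that interval excludes 1. This is not a test between days, because the spread between libraries is unknown and sites of a gene are not independent. RNA abundance was not used here, so more bound RNA per cell, more cells with the RNA and stronger binding cannot be told apart. Marker transcripts moved strongly over the same lists. By day, from day 0 to day 10, naive stem cell markers held 190, 11 and 9 sites (8 of 9 genes with a site, none in Sox2), the primed markers 0, 45 and 0 (3 of 3), and the cardiac and mesodermal markers 0, 4 and 765 (10 of 10). Endoderm markers held 0, 8 and 251 sites (6 of 7, none in Sox17) and endothelial and blood markers 6, 0 and 38 (3 of 5, none in Kdr or Gata1). The neural list held 0, 0 and 106 sites, all in Zeb2 and Cdh2 (2 of 5, none in Pax6, Sox1 or Tubb3). A gain of neural cells cannot be read from these 2 genes. The part of these differences in cell makeup in the results below was not tested.

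Most members were bound at every stage. Sites lay in 61 members on day 0, 64 on day 3 and 78 on day 10. Sites on all days were found in 55 of 80 members (68.8%), against 3288 of 7949 genes (41.4%) in the whole series. The members are long genes, with a median RefSeq span of 66.3 kb against 36.9 kb over all 7158 named protein-coding genes, and the median bound member held 5, 5 and 8.5 sites against 2, 2 and 4 per bound gene. Per length the difference was smaller. Bound members had a median of 9.69, 10.2 and 13.7 sites per 100 kb on day 0, day 3 and day 10, and all named protein-coding genes 7.92, 7.57 and 12.2. A site on day 10 alone was found in 11 members, among them Arid3a, Hdac6, Kat5, Kat8, Kat14, Setd1b, Smarca1, Smarca2, Smarcd2 and Smarcd3, with 1 to 3 sites each. Chd1l and Katnal2 had none on day 10.

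The sites were concentrated in few genes. The 23 members with 40 or more sites over the lists held 2231 of the 2933 sites (76.1%), 27 members held 10 to 39 and 30 members held under 10, or 118 sites together. On day 0 the acetyltransferase gene Kat6b alone held 204 of the members' 781 sites (26.1%). On day 3 the remodeller gene Chd9 led with 92 of 741 (12.4%), and on day 10 Setd5 led with 174 of 1411 (12.3%).

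**Figure D1:**
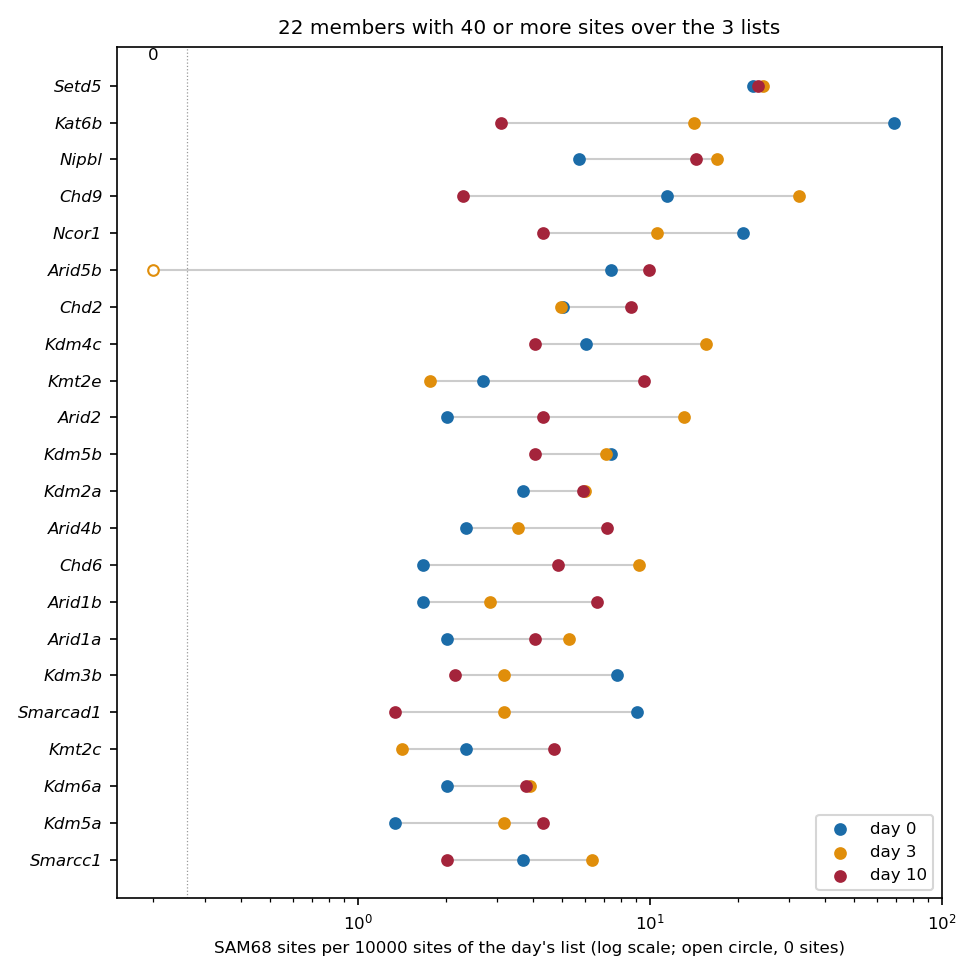
Sites per 10000 sites of each day's list (log axis) for 22 members with 40 or more sites; each circle is 1 list and the open circle marks 0 sites. Kat6b runs from 68.6 on day 0 to 3.10 on day 10, while the 3 values of Setd5 lie between 22.5 and 24.4 and Arid5b has no site on day 3.

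Taken as a sum, the members held 263 sites per 10000 on day 0 (245 to 281), 262 on day 3 (244 to 281) and 190 on day 10 (180 to 200). The summed share was 0.998 times the day 0 share on day 3 (0.902 to 1.11), 0.723 times the day 0 share on day 10 (0.662 to 0.790) and 0.725 times the day 3 share on day 10 (0.662 to 0.793). The sum rested in part on Kat6b. Without it the members held 194, 248 and 187 sites per 10000, and the ratios were 1.28 for day 3 against day 0 (1.14 to 1.43), 0.963 for day 10 against day 0 (0.873 to 1.06) and 0.753 for day 10 against day 3 (0.687 to 0.826). As a sum, the other 79 members thus held their largest share on day 3, where Chd9 held 92 of their 701 sites. This pooled value, with Kat6b alone left out, does not describe each member.

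Gene by gene, 69 members had a site on day 0 or day 3. Of these, 7 (10.1%) were called larger on day 3 and 7 (10.1%) smaller, where 3.84% and 4.3% of all genes were. The larger ones were Arid2, Chd6, Hdac8, Kdm2b, Nipbl, Chd9 and Kdm4c, and the smaller ones Arid5b, Arid4a, Kat6b, Setdb1, Smarcad1, Kdm3b and Ncor1. For day 10 against day 0, 6 of 79 members (7.59%) held a larger share and 12 (15.2%) a smaller one, where 7.33% and 10.5% of all genes did. For day 10 against day 3, 5 of 80 (6.25%) were larger and 10 (12.5%) smaller, where 5.62% and 8.58% of all genes were. Genes with many sites are called more often, and the members hold many. With a minimum of 10 sites, 18.9% of the members were larger and 18.9% smaller on day 3 than on day 0, where 12% and 14% of all such genes were. With the same minimum, 14.3% were larger and 23.8% smaller on day 10 than on day 0 (all genes 22.5% and 18.9%), and 11.4% larger and 20.5% smaller on day 10 than on day 3 (all genes 17.6% and 15.5%). The unequal lists also bias the calls, since a gene with no day 0 site needs 11 sites on day 10 to be called larger, and a gene with no day 10 site needs 3 on day 0 to be called smaller. Shares also depend on which other genes are in each list. With totals from genes bound on all days, 9 members were larger and 9 smaller on day 10 than on day 0. With sites closer than 20 or 100 nt merged, 6 calls of named members fell back to an interval across 1. They were Arid4b and Chd6 between day 3 and day 10, Kdm3b and Setdb1 between day 0 and day 3, and Kdm2b and Kdm5b between day 0 and day 10. The median log2 ratio of shares (pseudocount 1) was 0.49 over the members and 0.07 over all genes from day 0 to day 3. It was -0.06 and -0.32 from day 0 to day 10, where the members' sign changes with the pseudocount, and -0.39 and -0.39 from day 3 to day 10. Under the minimum of 10 sites, the medians from day 0 to day 3 were smaller, 0.12 for members and 0.003 for all genes. From day 0 to day 10 they were then 0.05 and 0.001, and from day 3 to day 10 -0.45 and -0.07.

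**Figure D2:**
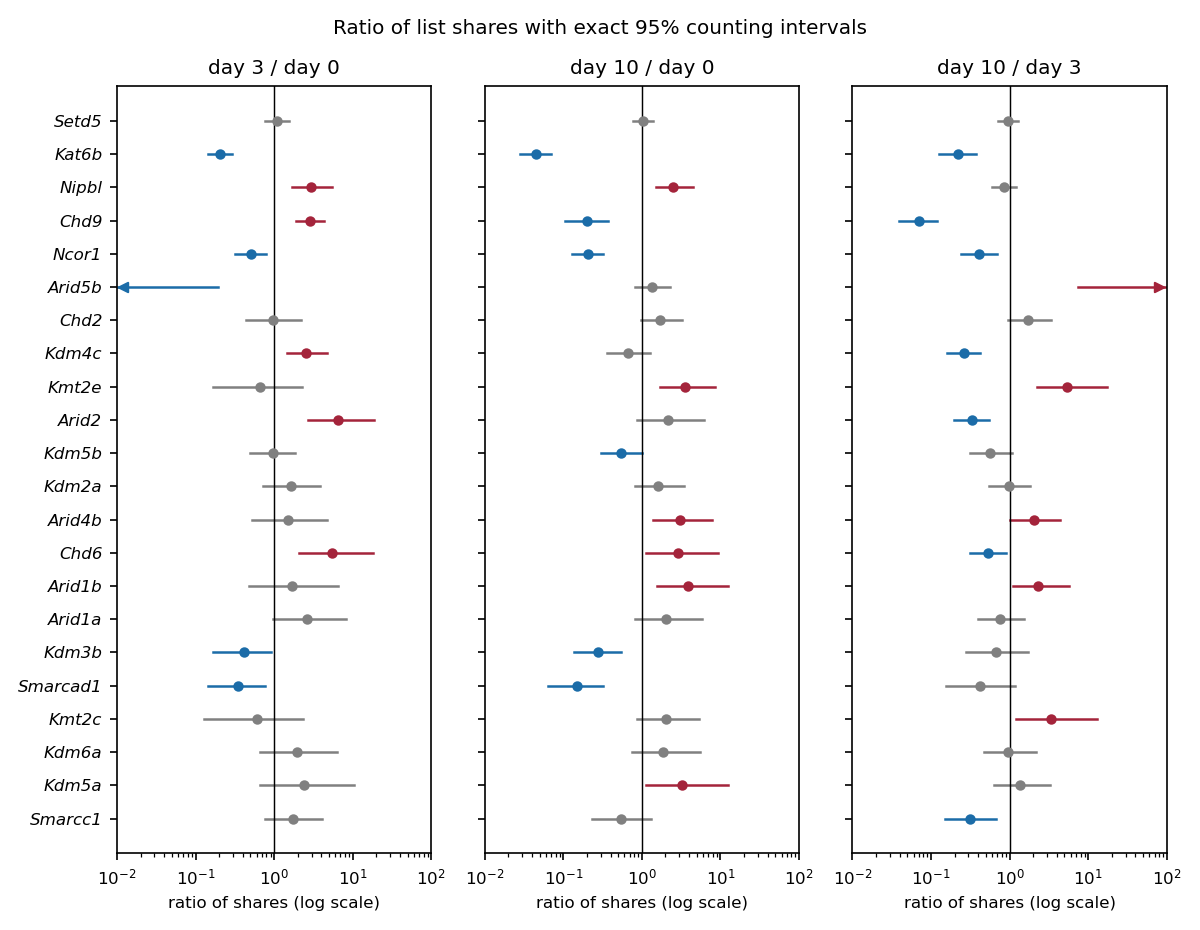
Ratio of list shares (log axis) for each pair of days with exact 95% counting intervals, for 22 members with 40 or more sites; red marks a larger share, blue a smaller share, grey an interval that holds 1, and arrowheads a gene with 0 sites on day 3. Kat6b, Ncor1 and Chd9 lie below 1 on day 10 against both earlier days, and Setd5 has intervals across 1 in all 3 panels.

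Among the histone acetyltransferases, Kat6b dominated day 0. Kat6b (ENSMUSG00000021767, chr14:21499216-21672478, plus strand, 173 kb) encodes the catalytic subunit of the MOZ/MORF acetyltransferase complex. It held 204 sites on day 0, the second highest number of any gene in the list, 40 on day 3 and 23 on day 10. Its share on day 3 was 0.206 times that on day 0 (0.143 to 0.291) and on day 10 0.0451 times (0.0280 to 0.0696), and the day 10 share was 0.219 times that of day 3 (0.125 to 0.374). Sites were fewer along the whole gene. Counted in 4 equal parts of the RefSeq span from the 5' end, day 0 sites numbered 45, 52, 49 and 31, day 3 sites 10, 9, 4 and 8, and day 10 sites 8, 5, 4 and 6. A further 36 sites given to Kat6b by the authors lay up to 17.0 kb upstream of the RefSeq span, 27 on day 0, 9 on day 3 and none on day 10. Inside the span the numbers were 177, 31 and 23, and the day 10 share was 0.0520 times the day 0 share (0.0321 to 0.0806). Of the 23 day 10 sites, 12 (52.2%) overlapped a day 0 site, where 9.68% of the day 10 sites of all genes did. The high number of day 0 sites in Kat6b was not allowed for.

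The other Kat genes were thinly bound. Kat2b, which encodes the coactivator PCAF, held 12, 8 and 2 sites, 0.0667 times its day 0 share on day 10 (0.00725 to 0.300) and 0.0951 times its day 3 share (0.00984 to 0.477). Kat6a, the close relative of Kat6b in the same complex, held 2, 2 and 9 sites, and its ratios held 1. Without Kat6b the Kat genes held 20, 13 and 18 sites, and their summed day 10 share was 0.360 times that of day 0 (0.180 to 0.717). This rested on Kat2b, and the other 5 Kat genes held 8, 5 and 16 sites, 0.801 times (0.323 to 2.16). In day 10 against day 0, 2 of 7 Kat genes, Kat6b and Kat2b, held a smaller share and none a larger one, where 10.5% and 7.33% of all genes did.

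Corepressors and deacetylases followed different courses. Ncor1 (chr11:62315663-62457414, minus strand), a scaffold that brings deacetylases to repressed promoters, held 62 sites on day 0, 30 on day 3 and 32 on day 10. Its share was 0.509 times that of day 0 on day 3 (0.318 to 0.799) and 0.207 times on day 10 (0.130 to 0.322), with a further difference between day 3 and day 10, 0.406 times (0.239 to 0.691). Its day 0 sites were most frequent towards the 3' end (10, 13, 16 and 23 in 4 equal parts), and on day 3 the second part held 15 of 30. Hdac8, an X-linked deacetylase known to act on cohesin, held 3, 12 and 21 sites and a larger share on day 3 than on day 0, 4.21 times (1.14 to 23.2). Hdac4, a deacetylase of the class that responds to calcium signals in muscle, held 6, 5 and 18 sites and Hdac2 3, 3 and 3, with intervals across 1. Hdac1, named here after its values were seen, held 5, 0 and 2 sites and was called smaller on day 10 against day 0, 0.160 times (0.0152 to 0.978).

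Nipbl (chr15:8289824-8465315, minus strand), which loads cohesin onto chromosomes, held a larger share on both later days than on day 0. It had 17 sites on day 0, 48 on day 3 and 107 on day 10, and its share on day 3 was 2.97 times that of day 0 (1.68 to 5.51) and on day 10 2.52 times (1.5 to 4.49). The interval of day 10 against day 3 held 1, 0.848 times (0.598 to 1.22). On day 0 no site lay in the last of 4 equal parts of the gene, and on day 3 and day 10 the same stretch held 9 (18.8%) and 17 (15.9%). With 17 sites on day 0, the exact interval of 0 to 19.5% holds both later shares. The densest 10 kb on day 0 held 7 of 17 sites, between 111 and 117 kb from the 5' end, that of day 3 held 13 of 48, between 34.0 and 44.0 kb, and that of day 10 held 22 of 107, between 40.5 and 50.2 kb.

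As a sum, the CHD remodellers held their largest share on day 3. They had 20.2, 49.5 and 19.1 sites per 10000, and the summed share on day 3 was 2.46 times that of day 0 (1.80 to 3.38). Chd9 (chr8:90828302-91054516, plus strand) held 34 sites on day 0, 92 on day 3, where it had the seventh highest number of all genes, and 17 on day 10. Its share on day 3 was 2.85 times that of day 0 (1.90 to 4.35), and on day 10 it was 0.0703 times that of day 3 (0.0393 to 0.119). Most day 10 sites were gathered in 1 place. The densest 10 kb of the day 10 sites spanned 1.63 kb, chr8:91002042-91003674, and held 11 of the 17. The same stretch held 2 of 34 sites on day 0 and 3 of 92 on day 3, and the rest of the gene held 32, 89 and 6 sites. The stretch was picked by its day 10 sites, a choice that favours lower counts on the other days. Chd6 held 5, 26 and 36 sites, 5.47 times its day 0 share on day 3 (2.07 to 18.2) and 0.527 times its day 3 share on day 10 (0.309 to 0.909). Without Chd9 the summed share was larger on day 3 than on day 0, 1.94 times (1.18 to 3.26). Of the 26 day 0 and 48 day 3 sites then left, Chd6 held 5 and 26. Day 10, again without Chd9, stood at 1.92 times day 0 (1.25 to 3.06) and 0.991 times day 3 (0.705 to 1.41). Of the 7 Chd genes, 2, Chd9 and Chd6, were called larger on day 3 than on day 0. None was called smaller, where 3.84% of all genes were larger and 4.3% smaller. Chd2, a remodeller that acts on transcribed genes, held 15, 14 and 64 sites, and its intervals held 1. An unnamed gene ID with 102 sites had 24 of them inside the RefSeq span of Chd1 (4, 8 and 12 by day) and the others outside it, so Chd1 was not counted among the members.

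The ARID genes, which include DNA-binding subunits of BAF complexes, held 19.5, 26.9 and 34.2 sites per 10000, and their day 10 share was 1.75 times that of day 0 (1.31 to 2.37). Without Arid5b that ratio was 2.00 (1.39 to 2.95), and day 3 against day 0, whose interval held 1 with it, was 2.22 (1.48 to 3.40). Of the 36 day 0 and 76 day 3 sites then left, Arid2 held 6 and 37. Of the 8 ARID genes, 1, Arid2, was called larger on day 3 than on day 0 and 2, Arid5b and Arid4a, smaller. Over all genes 3.84% were larger and 4.3% smaller. Arid5b (chr10:68092523-68279355, minus strand), a DNA-binding partner of a histone demethylase, held 22 sites on day 0, none on day 3 and 74 on day 10. Its shares on day 0 and day 10 did not differ beyond counting error, 1.35 times (0.827 to 2.28), but the sites lay in different places. On day 0, 17 of 22 sites (77.3%, exact interval 54.6 to 92.2) lay in the last of 4 equal parts of the gene, and on day 10, 9 of 74 (12.2%, 5.71 to 21.8). Of the 22 day 0 sites, 4 (18.2%) were found again on day 10, where 24.1% of the day 0 sites of all genes were. Arid2, a subunit of the PBAF complex, held 6, 37 and 32 sites, 6.49 times its day 0 share on day 3 (2.71 to 18.8) and 0.329 times its day 3 share on day 10 (0.198 to 0.543). Arid1b, a BAF subunit, held 5, 8 and 49 sites, 3.92 times its day 0 share on day 10 (1.57 to 12.6). Its relative Arid1a held 6, 15 and 30, with intervals across 1. Arid4b held 7, 10 and 53 sites, 3.03 times on day 10 against day 0 (1.37 to 7.90), while Arid4a held 9, 1 and 4, 0.178 times (0.0400 to 0.638). Both encode proteins of Sin3 deacetylase complexes.

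**Figure D3:**
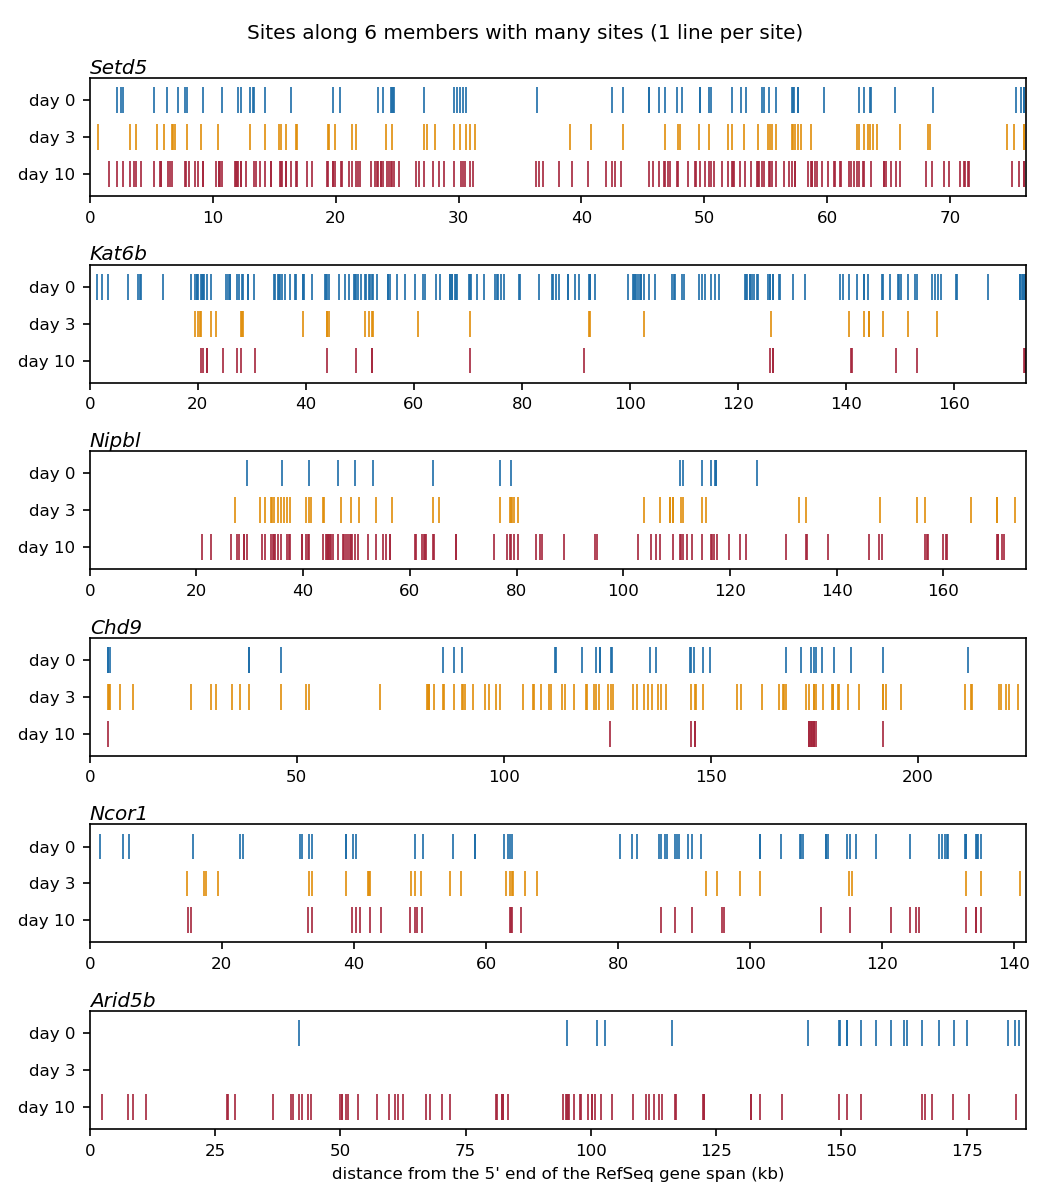
Sites along the RefSeq span of 6 members with many sites, drawn by distance from the 5' end in kb, 1 line per site and 1 row per day. Kat6b thins out along its whole length after day 0, and most Chd9 sites of day 10 gather in 1 stretch of 1.63 kb. Arid5b has no site on day 3 and most of its day 10 sites nearer the 5' end than those of day 0. Sites outside the span are not drawn.

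Methyltransferases of the Kmt and Setd groups held 40.7, 44.9 and 49.1 sites per 10000, with summed ratios whose intervals held 1 for each pair of days. Without Setd5 the summed share of the others was larger on day 10 than on day 0, 1.42 times (1.04 to 1.95). Of their 54 day 0 and 191 day 10 sites, Kmt2e held 8 and 71. Of the 14 genes, 1, Kmt2e, was called larger on day 10 than on day 0 and 1, Setdb1, smaller. Over all genes 7.33% were larger and 10.5% smaller. Setd5 (chr6:113077262-113153432, plus strand), a SET domain protein of corepressor complexes, had the most sites of any member over the lists and near-equal shares on each day. It held 67, 69 and 174 sites, or 22.5, 24.4 and 23.4 per 10000, and its ratios were 1.08 for day 3 against day 0 (0.763 to 1.54), 1.04 for day 10 against day 0 (0.780 to 1.40) and 0.960 for day 10 against day 3 (0.722 to 1.29). Its sites were spread over the gene on each day (17, 15, 20 and 15 in 4 equal parts on day 0, 49, 40, 44 and 41 on day 10). Of its 67 day 0 sites, 38 (56.7%) were found again on day 10, where 24.1% of the day 0 sites of all genes were. The dense day 10 sites of Setd5, with a median gap of 332 nt, were not allowed for. On both later days 13 of the 67 were found, the most of any member. Kmt2e, a PHD and SET domain protein also known as MLL5, held 8, 5 and 71 sites, 3.55 times its day 0 share on day 10 (1.71 to 8.55) and 5.40 times its day 3 share (2.21 to 17.1). Kmt2c, an enhancer methyltransferase, held 7, 4 and 35 sites and a larger share on day 10 than on day 3, 3.33 times (1.19 to 12.9). Setdb1, which silences retroelements in stem cells, held 14, 4 and 7 sites, 0.301 times its day 0 share on day 3 (0.0721 to 0.957) and 0.20 times on day 10 (0.0684 to 0.530). Kmt5a, named after its values were seen, held 4, 5 and 2 sites and was called smaller on day 10 against day 3.

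The lysine demethylases held 40.3, 52.7 and 33.9 sites per 10000. Their summed share was larger on day 3 than on day 0, 1.31 times (1.02 to 1.68), and smaller on day 10 than on day 3, 0.644 times (0.523 to 0.793). Without Kdm4c the first of these had an interval across 1, 1.08 times (0.817 to 1.44), and so had the second, 0.804 times (0.635 to 1.02). Kdm4c held 18, 44 and 30 sites, 2.57 times its day 0 share on day 3 (1.46 to 4.73) and 0.259 times its day 3 share on day 10 (0.157 to 0.422). Kdm2b, which recruits a Polycomb complex to CpG islands, held 5, 17 and 2 sites, 3.58 times its day 0 share on day 3 (1.27 to 12.4) and 0.0448 times its day 3 share on day 10 (0.00502 to 0.189). Its relative Kdm2a held 11, 17 and 44 sites, with intervals across 1. Kdm5a and Kdm5b remove marks of active promoters. Kdm5a held 4, 9 and 32 sites, 3.20 times its day 0 share on day 10 (1.14 to 12.5), and Kdm5b 22, 20 and 30, 0.546 times (0.305 to 0.993). Kdm3b held 23, 9 and 16 sites, 0.278 times its day 0 share on day 10 (0.138 to 0.551), and Kdm3a, named after its values were seen, 13, 5 and 10, 0.308 times (0.121 to 0.760). Kdm6a, the X-linked enzyme also called UTX, held 6, 11 and 28 sites, with intervals across 1.

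The SMARC genes, which include those of ATPases and core subunits of SWI/SNF and ISWI machines, held 16.5, 15.6 and 9.56 sites per 10000. Their summed day 10 share was 0.580 times that of day 0 (0.397 to 0.853). This rested on Smarcad1, a remodeller of the SNF2 family, which held 27, 9 and 10 sites, 0.148 times its day 0 share on day 10 (0.0640 to 0.316). Without it the family held 22, 35 and 61 sites, and the ratio was 1.11 (0.672 to 1.90). Smarcc1, a core BAF subunit, held 11, 18 and 15 sites and a smaller share on day 10 than on day 3, 0.317 times (0.149 to 0.666). Its relative Smarcc2 held 1, 3 and 14 sites, with intervals across 1. Smarca5, the ISWI ATPase, held 5, 7 and 13 sites, also with intervals across 1.

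None of the 6 bromodomain genes was called in any pair of days, where 3.84% to 10.5% of all genes were called in each direction, so that a count of 0 lies near the background. The family held 16.8, 16.6 and 12.4 sites per 10000. Brd1 held 10, 6 and 13 sites and Brd8 10, 7 and 10.

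**Figure D4:**
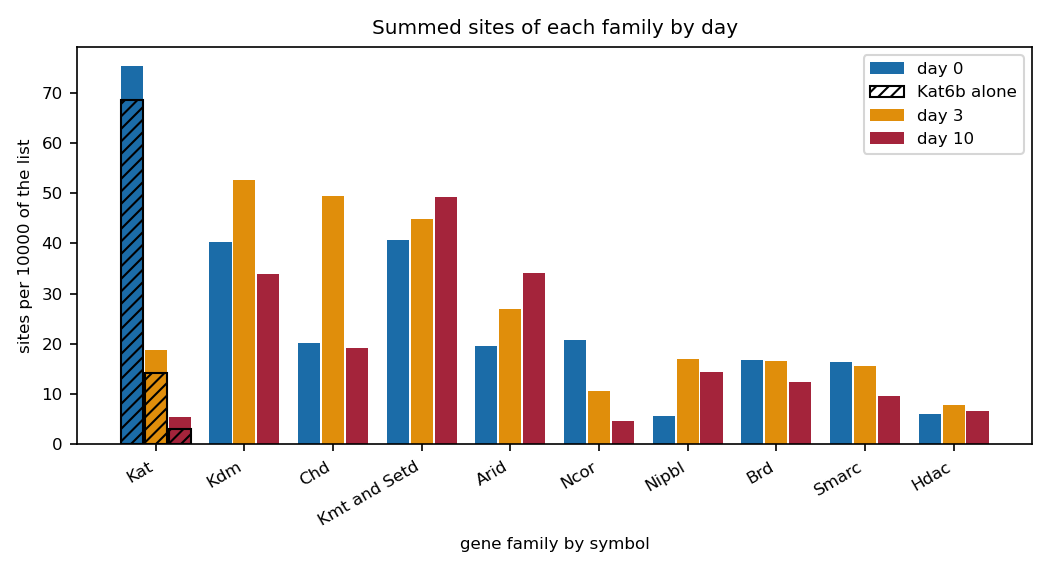
Summed sites of each family per 10000 sites of the day's list, 1 bar per day, with the part of Kat6b hatched in the Kat bars. The Kat bars stand at 75.3 on day 0 and 5.52 on day 10, the first being mostly Kat6b, the Chd bar is highest on day 3 at 49.5, and the Arid bars stand at 19.5, 26.9 and 34.2.

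Recurrence of single sites between days was near that of all genes for sites of day 0 and day 3. Counted from the day 10 side the percentage was higher, which depends on the numbers of sites per list. Of the members' 781 day 0 sites, 142 (18.2%, exact interval 15.5 to 21.1) overlapped a day 3 site on the same strand by at least 1 nt, and 178 (22.8%, 19.9 to 25.9) a day 10 site. Over all genes these shares were 17.4% and 24.1%. Of 741 day 3 sites, 19.0% (16.3 to 22.0) overlapped one of day 0 and 25.1% (22.0 to 28.4) one of day 10, where 18.3% and 25.9% of all sites did. Of the members' 1411 day 10 sites, 177 (12.5%, 10.9 to 14.4) overlapped a day 0 site, and 187 (13.3%, 11.5 to 15.1) a day 3 site, against 9.68% and 9.90% over all genes, which lie below both intervals. These are nearly the same overlaps counted from the other side. The members held 781 and 741 sites on day 0 and day 3 to 1411 on day 10, and all genes 29740 and 28266 to 74287. With relatively fewer day 10 sites the members' percentage is higher, and no greater recurrence can be read from it. In the members, 76 day 0 sites (9.73%) in 30 genes were found on both later days, near the 10.1% over all genes. Setd5 held 13 of these, Kdm4c 6 and Kat6b and Nipbl 4 each. Along the gene, the members' sites leaned to the third of 4 equal parts on day 0 (30.4%, 27.1 to 33.8), where all named protein-coding genes had 24.6%. On day 3 the members had 26.3% there (23.1 to 29.6), an interval that holds the 23.6% of all genes, and their fullest part was the last (28.2%). On day 10 they had 27.1% in the third part (24.8 to 29.5) and all genes 24.0%. Another site of the same gene lay within 1000 nt of 68.6% of the members' sites on day 0, 57.8% on day 3 and 74.1% on day 10, against 54.5%, 50.5% and 70.8% over all genes. Without Kat6b the day 0 value was 61.4%. Within 100 nt the members stood above all genes on day 0 alone, with 18.2%, 10.3% and 19.3% against 12.7%, 10.4% and 20.1%, and without Kat6b the day 0 value was 15.6%.

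Other chromatin genes, outside the prefixes, gave a frame for the group. Over all genes, 7.33% held a larger share on day 10 than on day 0 and 10.5% a smaller one (22.5% and 18.9% with at least 10 sites). For day 10 against day 0, 6 of 28 Polycomb genes held a larger share and 8 a smaller one, 3 and 6 of 20 among other histone methyltransferases, 3 and 4 of 21 among other acetyltransferases and sirtuins, 1 and 7 of 31 among other remodellers and their subunits, 4 and 3 of 26 among corepressor partners (3 of them members), 2 and 3 of 16 among cohesin genes (1 of them a member) and 3 and 4 of 12 among genes of DNA methylation. For day 3 against day 0 these lists had 1 or 2 genes in each direction, where 3.84% of all genes were larger and 4.3% smaller. Suz12, a core Polycomb subunit, held 43, 17 and 28 sites, 0.261 times its day 0 share on day 10 (0.156 to 0.429). Phf21a, a subunit of the corepressor with the demethylase Kdm1a, held 4, 90 and 91 sites, 23.7 times its day 0 share on day 3 (8.93 to 88.8), and Kdm1a itself held 5, 6 and 20. Baz2b, a bromodomain protein of ISWI complexes, held 28, 4 and 74 sites, a low day 3 value like that of Arid5b. Among cohesin genes, Stag1 held 68, 42 and 67 sites, 0.394 times its day 0 share on day 10 (0.277 to 0.561), and Pds5a 31, 31 and 45, 0.581 times (0.360 to 0.95), where Nipbl was called larger.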

How the data were processed

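SAM68 iCLIP2 sites of E14 cells were used at 3 stages, from 15 libraries. The authors deposited 1 list for each day, from which sites in overlapping genes had been removed, per the file headers. The deposited score is 0 for every site and was not used. Positions are on GRCm38, and sites are 5 nt wide. The submitters' processing notes list, without roles, STAR 2.7.11a, UMI-tools 1.1.6, SAMtools 1.22.1, MultiQC 1.31, bedtools 2.31.1 and FastQC 0.12.1, with 2 builds, GRCh38.p14 and GRCm38.p5. How sites were called, and from pooled or single libraries, is not given in the sources used here. Depth is unknown.

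Gene IDs took the symbol of the RefSeq gene (GRCm38.p6) of the same class, on the same strand where known, whose span held at least 80% of their sites, and 7404 of 7949 IDs (93.1%) were named. Shares were compared over all genes with exact conditional binomial intervals at 95%, not adjusted for the number of genes. Log2 ratios had a pseudocount of 1. The ratio calls were tested on simulated data with independent sites, and the overlap count on copied sites. The first of these does not cover sites of a gene that depend on each other, and the other steps were not tested in this way. Exons, introns and sequence at most sites were not analysed here, and values of some members are not reported here. The members, the lists and the alternatives were chosen with earlier results of these data known. Named genes are members with at least 40 sites, the 5 largest and 5 smallest ratios per pair of days among members with at least 10 sites, the 3 members with most sites per family, and up to 3 genes per related list. Python 3.11.15, NumPy 2.4.6, pandas 2.3.3, SciPy 1.17.1 and matplotlib 3.10.9 were used.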

Additional observations from a re-analysis of the deposited data

How the results depend on the processing

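The numbers of members with a larger or smaller share stayed within 1.5 times the reported ones under every alternative run (other list totals, merged sites, minimum numbers of sites, without katanins, naming at 50%), except with 99% intervals. These gave 4 smaller members in place of 7 for day 3 against day 0, and 2 larger ones in place of 5 for day 10 against day 3. The balance of larger and smaller members did depend on the list totals. With totals from genes bound on all days, 9 were larger and 9 smaller for day 10 against day 0, in place of 6 and 12. For day 10 against day 3 these were 6 and 8, in place of 5 and 10. The summed ratios were not run with these totals. Of 44 called ratios of named members, 13 were open at 99%, 6 with sites within 100 nt merged, 3 with sites within 20 nt merged and 3 with totals from genes bound on all days, and none turned. The open ones at 99% were Arid1b, Arid4b, Chd6 and Kmt2c for day 10 against day 3, Chd6, Kdm2b, Kdm5a and Kdm5b for day 10 against day 0, and Arid4a, Hdac8, Kdm2b, Kdm3b and Setdb1 for day 3 against day 0. Without Kat6b the summed ratios were 1.28, 0.963 and, as an alternative chosen after seeing the data, 0.753. Counting sites inside the RefSeq span alone, also chosen afterwards, kept the calls of Kat6b and Kdm5b. Leaving Kat2b out of the Kat genes other than Kat6b, chosen afterwards too, moved their ratio of day 10 to day 0 from 0.360 to 0.801, with an interval across 1. The median log2 ratio rests on the pseudocount. For day 3 against day 0 it was 0.27 with a pseudocount of 5 and 0.47 with one scaled by list length. For day 10 against day 0 it was -0.71 with a pseudocount of 5 and 0.47 with one scaled by list length, and for day 10 against day 3 -0.91 and -0.21. Recurrence of sites depends on the distance allowed. At identical positions it was 8.96% and 10.9% for day 0 sites on day 3 and day 10, 9.45% and 11.2% for day 3 sites on day 0 and day 10, and 6.02% and 5.88% for day 10 sites on day 0 and day 3. With centres within 20 nt it was 26.2% for day 0 sites on day 10, 29.3% for day 3 sites on day 10, and 15.3% and 15.9% for day 10 sites on day 0 and day 3. The motif share was not run. No paired analysis was possible because the 5 libraries of a day were deposited as 1 list, and for the same reason no library could be left out.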
